A study of Mus musculus with 20 samples.

Results

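The eosinophil and type 2 immune genes of an inflammation panel were Ccl24, Ccr3, Ccr8, Il13ra2 and Tslp, 5 of its 584 genes. All assays carrying one of these symbols were taken, each assay apart, which gave 7 of 648 assays. Ccr3 and Ccr8 have 2 assays each. RNA of the mouse ileal mucosa was measured by TaqMan real-time PCR in 20 samples, 5 in each of 4 groups. The CEC group was given an oral treatment called CEC together with intrarectal DNBS, dinitrobenzene sulfonic acid, which is a hapten used to provoke colitis. The Nissle group received intrarectal DNBS and oral Nissle, the name of a probiotic Escherichia coli strain. The DNBS group received intrarectal DNBS and oral phosphate-buffered saline (PBS), and the healthy group received PBS by both routes. Strain, sex, age and what CEC stands for are not given in the sources used here. The series text mentions RNA pooled from mice and does not state if each sample came from a separate mouse. The p-values therefore reflect the spread among the samples as deposited, and that spread may be technical.

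Type 2 immunity is the branch of immune defence that recruits eosinophils, mast cells and type 2 lymphocytes to mucosal surfaces. Tslp, an epithelial alarm cytokine, primes dendritic cells and innate lymphoid cells for it, and IL-13 is among its effector cytokines. Il13ra2 binds IL-13 with high affinity and is mostly described as a decoy receptor. Ccl24 (eotaxin-2) is a chemokine that attracts eosinophils through Ccr3, which is also found on basophils and mast cells, while Ccr8 is carried by type 2 helper and regulatory T cells.

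The deposited values are cycle thresholds (Ct), the number of cycles to a fixed fluorescence, with 40 for no amplification. The relative level used here is the mean Ct of 544 assays with a value in all samples, minus the Ct of the assay. The log2 scale assumes that the product doubles in each cycle, and levels of different assays are not set against each other. A sample gave a value for 570 to 594 assays, at a mean Ct of 22.6 to 24.3. Of 15 epithelial marker genes listed, 4 were on the panel. Apoa4, an apolipoprotein gene of the small intestinal epithelium, gave no value in any sample, while the 4 assays of Apoa1, Ccl25 and Reg3g gave a value in every sample and averaged 6.81 to 8.81 above the sample mean. For 3 Nissle samples, numbers 3, 4 and 5, one label names the healthy controls while title, description and both treatments name Nissle, and they were kept as Nissle.

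None of the 6 assays that could be tested passed in any of the 7 comparisons made (limma, Benjamini-Hochberg adjustment over 569 assays, threshold 0.05). In the DNBS group against the healthy group, 0 of 6 passed, with a background of 0.176% of all tested assays. At an unadjusted p under 0.05, the count was 4 of 6, against 14.6% of all tested assays: Ccl24 was on the higher side, while the single-exon Ccr3 assay and both Ccr8 assays were on the lower side. The 3 on the lower side are all single-exon assays, 2 of them of Ccr8. Of the 51 other single-exon assays, 45 were also lower in this comparison. The share over all assays is therefore no background for these 3. Il13ra2 could not enter this test, because no healthy sample gave a value. With samples weighted by their fit to the model (limma array weights), 4 of the 6 passed in the DNBS group against the healthy group, where 17.8% of all assays passed. These were the same 4 assays, with the same limit. For the mean of the 3 DNBS-treated groups against the healthy group, 0 of 6 passed, with a background of 0.176%.

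**Figure D1:**
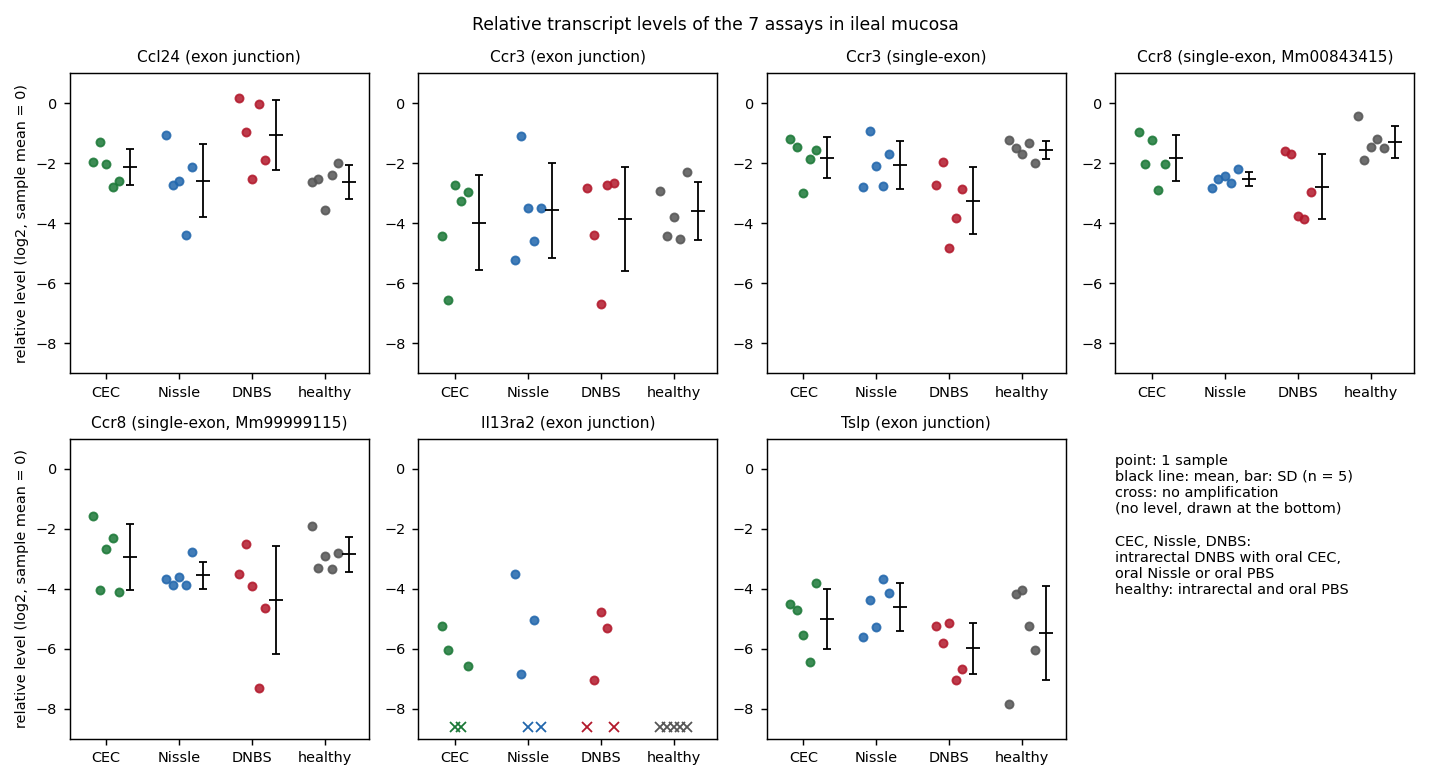
Relative level (log2, sample mean at 0) of each of the 7 assays in each sample of the CEC, Nissle, DNBS and healthy groups; points are samples, bars the mean and SD of 5 samples, and crosses samples without amplification. Ccl24 is highest in 3 DNBS samples, the single-exon receptor assays are lowest in DNBS samples, and Il13ra2 has crosses in all 5 healthy samples.

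Ccl24, the eotaxin-2 gene, was measured with 1 exon-junction assay (Ccl24_Mm00444701_m1) and gave a value in all 20 samples. Its relative level in the DNBS samples was 0.17, -0.97, -2.53, -0.02 and -1.89, against -2.63, -2.54, -3.56, -2.37 and -1.997 in the healthy samples. Thus 4 of 5 DNBS samples lay above all healthy samples, and DNBS 3 lay among them. The CEC samples stood at -1.95, -1.29, -2.01, -2.80 and -2.59, and the Nissle samples at -1.04, -2.73, -2.60, -4.39 and -2.13. The Nissle samples spread most widely, and their highest and lowest values enclosed every healthy value.

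The mean Ccl24 level was -1.05 ± 1.17 in the DNBS group, against -2.62 ± 0.58 in the healthy group (SD, n = 5 each). The difference of 1.57 on the log2 scale (SE 0.57, 95% interval 0.39 to 2.75) corresponds to a 2.97-fold higher level and did not pass (limma adjusted p = 0.158). In a bulk sample, a change in the number of cells of a type and a change in RNA per cell cannot be told apart. The Nissle group had a Ccl24 level of -2.58 ± 1.21, below the DNBS group by a log2 difference of -1.53 (SE 0.57, interval -2.71 to -0.35, limma adjusted p = 0.85), and without Nissle 3, 4 and 5 the difference was -0.84. In the CEC group it was -2.13 ± 0.59, and the difference from the DNBS group was -1.08 (interval -2.26 to 0.10, limma adjusted p = 0.476). Against the healthy group the differences were 0.49 for CEC and 0.04 for Nissle (limma adjusted p = 0.83 and 0.985). The order of means was thus DNBS, CEC, Nissle and healthy, and each neighbouring pair overlapped.

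The neutrophil markers, 7 of 8 listed genes with 8 assays that all gave a value in every sample, were also higher in several treated samples. Their mean level ranged from -2.82 to 0.45 in the CEC samples (median -2.35), from -2.43 to 2.66 in the Nissle samples (median -1.57) and from -2.25 to 0.79 in the DNBS samples (median -0.22), against -3.29 to -1.71 in the healthy samples (median -2.72). The mean of the measured epithelial markers, Reg3g included and Apoa4 not, ranged from 8.15 to 8.81 in the CEC, from 6.91 to 8.59 in the Nissle and from 6.81 to 8.10 in the DNBS samples, against 7.26 to 8.48 in the healthy samples. Ccl25 alone ranged from 3.08 to 5.257 in the DNBS samples, against 5.264 to 6.11 in the healthy samples, so that these ranges nearly met. The Apoa1 assays overlapped, at 6.01 to 7.81 against 5.42 to 8.44 and at 6.26 to 8.44 against 6.40 to 8.76. The mean of 8 macrophage, monocyte and dendritic cell marker assays ranged from -1.29 to -0.11 in the CEC samples (median -1.04). It ranged from -1.35 to 0.22 in the Nissle samples (median -0.80) and from -1.55 to -0.32 in the DNBS samples (median -1.43). The healthy samples ranged from -1.92 to -1.06 (median -1.33). The part of any of these cell types in the Ccl24 values was not tested. Over the 20 samples, the assays whose levels were most like Ccl24 were Reg3g, an epithelial antimicrobial lectin (Pearson r = 0.75), Ltf, the neutrophil granule protein lactoferrin (0.71), and Il33, an epithelial and stromal alarm cytokine (0.70). These values describe samples that share a scaling and a group structure.

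Ccr3, the eotaxin receptor gene, was measured with an assay inside a single exon (Ccr3_Mm00515543_s1) and one across an exon junction (Ccr3_Mm01216172_m1). A single-exon assay can also amplify genomic DNA, which a junction assay normally does not. With the single-exon assay, the DNBS samples stood at -2.73, -1.94, -4.84, -3.84 and -2.87, against -1.23, -1.51, -1.67, -1.32 and -1.995 in the healthy samples. All DNBS samples but DNBS 2 lay below every healthy sample. In the CEC group the values were -1.20, -1.47, -2.98, -1.86 and -1.55, and in the Nissle group -2.80, -0.93, -2.09, -2.77 and -1.69. Both groups overlapped the healthy range.

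With the single-exon assay, the mean Ccr3 level was -3.24 ± 1.12 in the DNBS group, against -1.55 ± 0.30 in the healthy group (SD, n = 5 each). The log2 difference was -1.70 (SE 0.49, 95% interval -2.71 to -0.68), a 3.24-fold lower level that did not pass (limma adjusted p = 0.122). The CEC mean of -1.81 ± 0.69 was above the DNBS mean by 1.43 (SE 0.49, interval 0.41 to 2.45, limma adjusted p = 0.385). The Nissle mean of -2.06 ± 0.78 was above it by 1.18 (interval 0.17 to 2.20, limma adjusted p = 0.85). Differences from the healthy group were -0.27 for CEC and -0.51 for Nissle (limma adjusted p = 0.899 and 0.67). From high to low, the order of means was healthy, CEC, Nissle and DNBS, with overlap between all neighbours.

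The exon-junction Ccr3 assay did not show this order. Its levels were -2.82, -4.37, -6.68, -2.72 and -2.65 in the DNBS samples, against -2.94, -4.41, -3.80, -4.52 and -2.29 in the healthy samples. Apart from DNBS 3, every DNBS sample lay within the healthy range. The CEC samples stood at -4.44, -6.56, -2.72, -3.25 and -2.94 and the Nissle samples at -5.22, -1.08, -3.48, -4.58 and -3.49. The widest range of the 4 groups lay within the Nissle group, between Nissle 1 and Nissle 2.

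By the junction assay, the mean Ccr3 level was -3.85 ± 1.73 in the DNBS group, against -3.59 ± 0.96 in the healthy group. The difference was -0.26 with a 95% interval of -2.08 to 1.57 (limma adjusted p = 0.925), which includes the difference found with the single-exon assay. Leaving out 1 sample turned its sign in 2 cases, to 0.45 without DNBS 3 and to 0.067 without healthy 6. The Nissle mean was -3.57 ± 1.58 and the CEC mean -3.98 ± 1.58, so that the order from high to low was Nissle, healthy, DNBS and CEC, each pair overlapping. Differences in the other 6 comparisons lay between -0.41 and 0.28 and did not pass.

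Within a sample, the single-exon level of Ccr3 minus its junction level was 0.61 ± 1.48 in the DNBS group, against 2.05 ± 1.15 in the healthy group (SD, n = 5 each). This change of -1.44 in the difference between assays did not pass (exact permutation test over samples, two-sided, p = 0.119, adjusted p = 0.609 over 7 comparisons). In the remaining comparisons the exact p lay between 0.222 and 0.929. Across all 20 samples the levels from both Ccr3 assays had a Pearson r of 0.26 (permutation p = 0.269) and a Spearman rho of -0.04 (permutation p = 0.867). Without DNBS 3 and DNBS 4, the samples farthest from the median of the single-exon level, r was 0.00. With group means removed, over all 20 samples, it was 0.32.

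Ccr8, a receptor for the chemokine Ccl1, was measured with 2 assays, both inside a single exon. For Ccr8_Mm00843415_s1, the DNBS samples had levels of -1.59, -1.70, -3.75, -3.86 and -2.97, against -0.43, -1.89, -1.47, -1.20 and -1.49 in the healthy samples. DNBS 3, 4 and 5 lay below all healthy samples, and the other two lay within their range. The CEC samples had -0.95, -2.02, -1.24, -2.90 and -2.01, whereas the Nissle samples had -2.82, -2.53, -2.43, -2.64 and -2.20. All 5 Nissle samples lay below every healthy sample, which held for 2.46% of all tested assays in that comparison and direction.

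The mean of this Ccr8 assay was -2.77 ± 1.09 in the DNBS group, against -1.30 ± 0.54 in the healthy group (SD, n = 5 each). The log2 difference of -1.48 (SE 0.46, 95% interval -2.44 to -0.52) did not pass (limma adjusted p = 0.122). The Nissle mean was -2.53 ± 0.23, a difference from the healthy group of -1.23 (SE 0.46, interval -2.19 to -0.27, limma adjusted p = 0.488). The CEC mean of -1.82 ± 0.76 differed from the healthy group by -0.53 (interval -1.49 to 0.43, limma adjusted p = 0.82). From the DNBS group, the CEC group differed by 0.95 (interval -0.01 to 1.91) and the Nissle group by 0.25 (interval -0.71 to 1.21), neither of which passed (limma adjusted p = 0.458 and 0.895). Averaged over the 3 DNBS-treated groups, the level stood below the healthy group by a log2 difference of -1.08 (SE 0.38, limma adjusted p = 0.359), and 11 of 15 samples lay below all healthy ones. The order of means from high to low was healthy, CEC, Nissle and DNBS, and each neighbouring pair overlapped.

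The second Ccr8 assay, Ccr8_Mm99999115_s1, gave -3.51, -2.51, -3.93, -7.30 and -4.64 in the DNBS samples, against -1.91, -3.30, -2.93, -3.36 and -2.82 in the healthy samples. Here 4 of 5 DNBS samples lay below all healthy samples, with DNBS 4 far below the others. The CEC samples stood at -1.59, -4.05, -2.69, -2.32 and -4.13, and the Nissle samples at -3.68, -3.88, -3.60, -3.87 and -2.78. The mean was -2.96 ± 1.11 in the CEC group, -3.56 ± 0.46 in the Nissle group and -4.38 ± 1.80 in the DNBS group, against -2.86 ± 0.58 in the healthy group (SD, n = 5 each), with overlap between all neighbours. The difference between the DNBS and healthy groups was -1.51 (SE 0.68, 95% interval -2.93 to -0.10, limma adjusted p = 0.302), and without DNBS 4 it was -0.78. The CEC group lay above the DNBS group by 1.42 (interval 0.01 to 2.83, limma adjusted p = 0.458), a difference of 0.69 without DNBS 4.

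The levels from both Ccr8 assays correlated over the 20 samples, with a Pearson r of 0.72 (permutation p = 0.00021, adjusted p = 0.00042 over the 2 genes with an assay pair) and a Spearman rho of 0.66 (permutation p = 0.00195, adjusted p = 0.0039). Without DNBS 3 and DNBS 4 the Pearson r was 0.63, and with group means removed it was 0.64. Each Ccr8 assay correlated more highly with a single-exon assay of another gene. For Ccr8_Mm00843415_s1 this was Ifna12 (0.88), and for Ccr8_Mm99999115_s1 Ifnb1 (0.84). The r of 0.72 is thus not particular to assays of the same gene. The Ccr3 pair, by contrast, joins a single-exon and a junction assay. Whether the correlations of the 2 pairs differ was not tested.

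**Figure D2:**
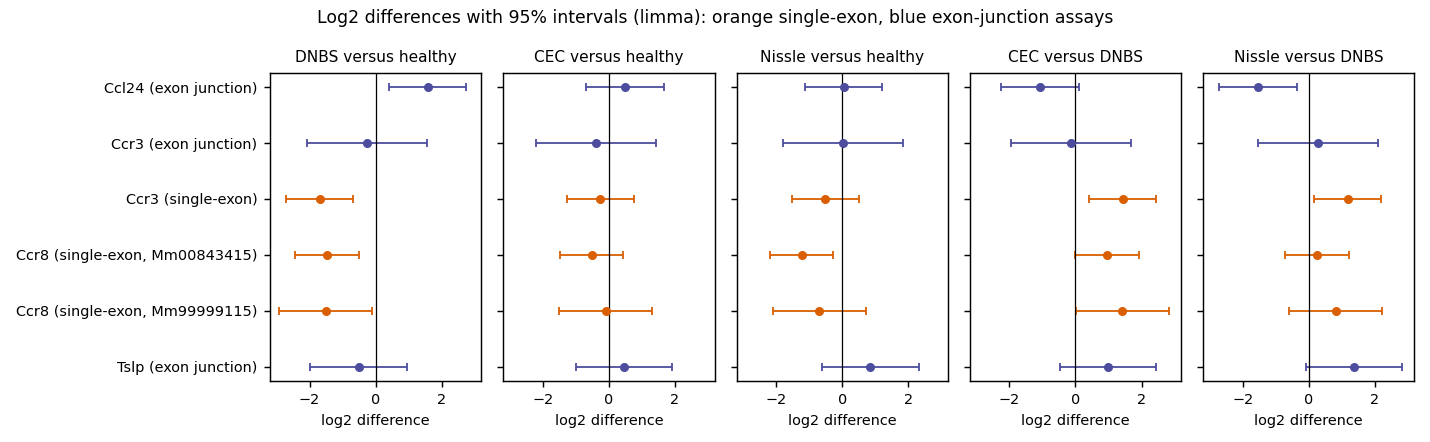
Log2 difference (x axis, first group minus second) with its 95% interval from limma for the 6 tested assays in 5 comparisons; orange marks single-exon and blue exon-junction assays. In the DNBS group against the healthy group, Ccl24 stands at 1.57 and the 3 single-exon receptor assays between -1.70 and -1.48, while exon-junction Ccr3 and Tslp have intervals across 0.

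The other single-exon assays of the panel mostly stood in the same direction as the receptor assays. In the DNBS group against the healthy group, 45 of the 51 others were lower, with a median difference of -0.63. The median was -0.02 for the 515 tested assays of other designs, which include Ccl24, exon-junction Ccr3 and Tslp. Of these 51, 6 had a more negative difference than single-exon Ccr3, and 8 had a more negative one than each Ccr8 assay. In the CEC group against the DNBS group, 40 of 51 were higher, with a median of 0.61, and 4 exceeded Ccr3 in this direction. The median in the Nissle group against the DNBS group was 0.32, and 2 exceeded Ccr3.

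Per sample, the 50 other single-exon assays measured everywhere had a mean level of -0.34 ± 0.27 in the CEC group, -0.58 ± 0.18 in the Nissle group and -0.87 ± 0.44 in the DNBS group, against -0.25 ± 0.36 in the healthy group (SD, n = 5 each). DNBS 4 and DNBS 3, which had the lowest levels of single-exon Ccr3 and of Ccr8_Mm00843415_s1, were also lowest in this mean, at -1.47 and -1.14. Measured relative to all single-exon assays, the DNBS difference from the healthy group was -1.02 for Ccr3 (limma adjusted p = 0.27) and -0.81 and -0.84 for the Ccr8 assays (limma adjusted p = 0.287 and 0.552). By the same scale, CEC minus DNBS was 0.86 for Ccr3 and 0.38 and 0.85 for Ccr8. The part of genomic DNA in these values was not tested.

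**Figure D3:**
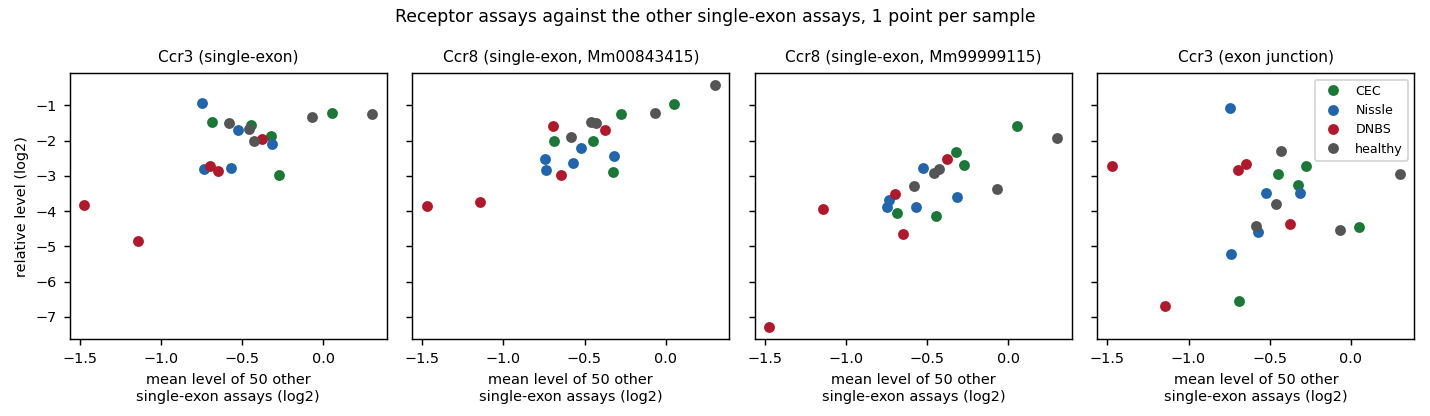
Level of each receptor assay (y axis, log2) against the mean level of the 50 other single-exon assays in the same sample (x axis, log2), 1 point per sample, coloured by group. DNBS 4 and DNBS 3 lie far left at -1.47 and -1.14 and are the lowest samples in the panels of single-exon Ccr3 and Ccr8_Mm00843415_s1. In the exon-junction Ccr3 panel DNBS 3 is also the lowest sample, at -6.68, while DNBS 4 stands at -2.72.

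By likeness over the 20 samples, single-exon Ccr3 was closest to S1pr1, a lymphocyte egress receptor gene (Pearson r = 0.80), to Ifne, an epithelial interferon gene (0.74), and to the chemokine receptor-like gene Ccr1l1 (0.74). Ccr8_Mm00843415_s1 was closest to Ifna12 (0.88), Ccr1l1 (0.87) and the sodium channel gene Scn9a (0.79). All of these are single-exon assays. Ccr8_Mm99999115_s1 was closest to Ifnb1 (0.84) and Scn9a (0.83), also single-exon, and to an assay that covers Lefty1 and Lefty2 (0.82). Exon-junction Ccr3 was closest to Il1rl1, the gene of the IL-33 receptor found on mast cells and type 2 lymphocytes (0.68), then to Ik (0.64) and Abcf1 (0.59).

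Tslp, the epithelial alarm cytokine gene, gave a value in every sample with its exon-junction assay (Tslp_Mm00498739_m1), at a Ct between 27.0 and 31.8. Its level was -5.26, -5.82, -5.14, -7.04 and -6.68 in the DNBS samples, against -7.84, -4.17, -4.05, -5.25 and -6.06 in the healthy samples. Healthy 1b was the lowest of all 20 samples, and the DNBS samples lay inside the healthy range. The CEC samples stood at -4.52, -4.72, -5.54, -6.44 and -3.82, and the Nissle samples at -5.62, -4.37, -5.26, -3.69 and -4.16.

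The mean Tslp level was -5.99 ± 0.85 in the DNBS group, against -5.47 ± 1.56 in the healthy group (SD, n = 5 each), a difference of -0.52 (95% interval -1.98 to 0.94, limma adjusted p = 0.802). In the Nissle group it was -4.62 ± 0.80, above the DNBS group by 1.37 (SE 0.70, interval -0.09 to 2.83, limma adjusted p = 0.85), with 3 of 5 Nissle samples above all DNBS samples. The CEC mean of -5.01 ± 1.01 was above the DNBS group by 0.98 (interval -0.48 to 2.44, limma adjusted p = 0.577). Against the healthy group the difference was 0.85 for Nissle and 0.46 for CEC (limma adjusted p = 0.622 and 0.875). Without healthy 1b the difference from the healthy group was -1.11 for DNBS, 0.26 for Nissle and -0.13 for CEC, and none passed. Nissle, CEC, healthy and DNBS was the order of the means from high to low, and all neighbours overlapped. The assays most like Tslp were Ccl22, a chemokine gene of dendritic cells (Pearson r = 0.55), Tnfrsf11b (0.50) and C1qa (0.47), lower than the likeness found for the other genes.

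Il13ra2, the IL-13 decoy receptor gene, amplified in 3 of 5 CEC samples, 3 of 5 Nissle samples and 3 of 5 DNBS samples, and in 0 of 5 healthy samples. Its Ct was 28.8, 29.4 and 29.9 in CEC 1, 3 and 8. It was 26.1, 29.6 and 29.1 in Nissle 1, 2 and 4, and 29.8, 28.9 and 28.3 in DNBS 2, 3 and 4. Nissle 1 was thus the earliest, before DNBS 4 at 28.3. By relative level Nissle 1 was also the highest, at -3.52, followed by DNBS 3 at -4.79, with DNBS 4 at -5.31.

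Taking the 3 DNBS-treated groups as 1, Il13ra2 was detected in 9 of 15 samples (60%, exact Clopper-Pearson 95% interval 32.3 to 83.7%) and in 0 of 5 healthy samples (interval up to 52.2%). The difference did not pass (Fisher's exact test, two-sided, p = 0.0379, adjusted p = 1 over 648 assays). For each group alone the exact p was 0.167 (Fisher's exact test, adjusted p = 1). With 5 samples per group, this test could hardly pass after adjustment over 648 assays, whatever the counts. At an unadjusted p under 0.05, 0.617% of the assays differed in detection between the DNBS-treated and healthy samples, and 0% after adjustment. Of 45 assays without a value in any healthy sample, 26 had none anywhere, and 2 had values in at least 9 treated samples: Il13ra2 and Scgb3a1, a secretoglobin gene named after its values were seen, which was detected in 13.

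Detection of a rare transcript depends on the amount of cDNA. The mean Ct of the 544 shared assays was 22.6 to 24.1 in the 9 treated samples with an Il13ra2 value, 23.0 to 24.3 in the 6 without, and 23.0 to 23.9 in the healthy samples. The number of assays with a value had medians of 591, 584 and 574 in these 3 sets of samples. The part of input in the Il13ra2 result was not tested.

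No difference between the CEC and Nissle groups passed in these assays. The differences, CEC minus Nissle, were 0.45 for Ccl24 (95% interval -0.73 to 1.63), 0.25 for single-exon Ccr3 (interval -0.77 to 1.26) and -0.41 for exon-junction Ccr3 (interval -2.24 to 1.41). For Ccr8 they were 0.70 (interval -0.26 to 1.66) and 0.61 (interval -0.80 to 2.02), and for Tslp -0.39 (interval -1.85 to 1.07). The adjusted p was 0.998 for each (limma), 0 of 6 passed, and the background was 0% of all tested assays. Intervals this wide do not show that the oral treatments act alike.

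Without Nissle 3, 4 and 5, the samples with contradictory labels, 2 Nissle samples remained. The Nissle difference from the DNBS group was then 1.38 for single-exon Ccr3, 0.70 for exon-junction Ccr3, 0.099 and 0.60 for the Ccr8 assays and 0.99 for Tslp. From the healthy group it was 0.73 for Ccl24, -0.32 for single-exon Ccr3, 0.44 for exon-junction Ccr3, -1.38 and -0.92 for the Ccr8 assays and 0.48 for Tslp. CEC minus Nissle became -0.24 for Ccl24, 0.052 for single-exon Ccr3, -0.83 for exon-junction Ccr3, 0.85 and 0.82 for the Ccr8 assays and -0.014 for Tslp. None of these differences passed. Il13ra2 was then detected in 2 of 2 Nissle samples and in 8 of 12 DNBS-treated samples, against 0 of 5 healthy samples (Fisher's exact test, adjusted p = 1 for each over 648 assays), a count added after the data were seen. With 2 Nissle samples, the test of that group could hardly pass after adjustment.

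In the comparisons of the oral treatments with the DNBS group, the background was also 0% for CEC and for Nissle. Against the healthy group, 0 of 6 passed for CEC and for Nissle, with a background of 0.176% in each. The comparisons against the DNBS group share its 5 samples, and those against the healthy group share the healthy samples. With array weights, 1 of the 6 assays passed in the CEC group against the DNBS group, single-exon Ccr3 (1.51, limma adjusted p = 0.0408), where 8.26% of all assays passed.

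The lists of related genes described next leave out the 5 genes themselves. Most of the listed type 2 cytokines amplified in few samples or none. Of 8 such genes on the panel, Il33 and Csf2 could be tested. Il3 and Il9, growth factors of mast cells and basophils, and the regulatory cytokine gene Il10 had no value in any sample. Il5, the main eosinophil growth factor, amplified in 1 CEC sample only. Il4, the type 2 switch cytokine, had values in 3 CEC, 0 Nissle and 1 DNBS sample, against 2 healthy samples, and the Il13 assays had values in 1 sample per group or fewer. In the DNBS group against the healthy group, Il33 differed by 1.07 (SE 0.58, limma adjusted p = 0.408) and the Csf2 assays by 0.25 and 1.66 (limma adjusted p = 0.919 and 0.372). All 3 assays were on the higher side, and none passed.

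Among the other CCR3 ligands, Ccl11 (eotaxin-1) differed by 0.56 between the DNBS and healthy groups (SE 0.41, limma adjusted p = 0.566). Ccl7, which attracts monocytes and eosinophils, differed by 2.33 and 1.90 with its assays (SE 0.87 and 0.76, limma adjusted p = 0.163 and 0.224), and for both assays all DNBS samples lay above all healthy samples, as 2.28% of all assays did. Over the list, 4 of 7 assays were higher, none passed, and the median was 0.01, beside -0.07 over all tested assays. Ccl5, a T cell chemokine that also binds CCR3, stood at -1.07 and -0.63 with its assays.

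Ligands of CCR8 and CCR4, with the Ccr4 receptor gene, had 5 tested assays. Of these, 4 were higher in the DNBS group than in the healthy group, with a median of 0.16 and none passing. Among the 4, Ccl8 was near 0, at 0.01. Both assays of Ccr8 itself, at -1.48 and -1.51, were on the lower side. They are single-exon assays, and 45 of the 51 others of that design were also lower, with a median of -0.63. None of the 5 assays listed here is single-exon, so the receptor and its ligands cannot be compared apart from assay design. The CCR8 ligand gene Ccl1 differed by 0.16 (SE 0.64) and Ccr4, another receptor of type 2 helper cells, by 1.41 (SE 0.73, limma adjusted p = 0.396). Among 12 tested assays of type 2 receptors and signalling, 6 were higher and 6 lower. The IL-13 signalling receptor gene Il13ra1 differed by -0.29 and 0.11, the IL-4 receptor gene Il4ra by 0.20, and the transcription factor gene Stat6 by 0.06. None of these passed (limma adjusted p from 0.621 to 0.965). Jak3, a kinase of the shared cytokine receptor chain, was at -0.62 in the CEC group against the DNBS group (SE 0.30, limma adjusted p = 0.458).

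Of the eosinophil, mast cell and basophil genes, 5 of 13 tested assays were higher in the DNBS group than in the healthy group, none passed, and the median was -0.03. Prg2, which encodes the eosinophil major basic protein, was measured in all samples and differed by 0.42 (SE 0.54, limma adjusted p = 0.783). Kit, the mast cell growth factor receptor gene, differed by -0.71 (SE 0.26, limma adjusted p = 0.163), and in the Nissle group against the healthy group by -0.73 (SE 0.26, limma adjusted p = 0.488). Hrh1, a histamine receptor gene, differed from the healthy group by -1.17 in the CEC group, -1.34 in the Nissle group and -0.84 in the DNBS group with its exon-junction assay, which had 3 values in the DNBS group (limma adjusted p = 0.803, 0.488 and 0.585). With its single-exon assay the differences were -0.40, -0.77 and -0.63 (limma adjusted p = 0.803, 0.488 and 0.38). The medians over the single-exon assays other than those of Ccr3 and Ccr8 were -0.20, -0.41 and -0.63. This Hrh1 assay is among them, and in the DNBS group against the healthy group its own value is the median. Of 6 assays of Alox5, a leukotriene synthesis enzyme gene, 1 differed by 0.87 in the CEC group against the DNBS group and another by 0.88 in the CEC group against the Nissle group, and neither passed (limma adjusted p = 0.416 and 0.998). The IL-5 receptor gene Il5ra amplified in 3 CEC, 3 Nissle and 3 DNBS samples and in 2 healthy samples. Of 8 eosinophil marker genes listed, 3 were on the panel: Ccr3, Il5ra and Prg2.

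In the list of alternatively activated macrophage and chitinase-like genes, the 3 tested assays were higher in the DNBS group than in the healthy group, with a median of 1.06 and none passing. Chi3l3 is a chitinase-like protein gene that type 2 cytokines induce in macrophages. It differed from the healthy group by 4.65 in the CEC group, 5.88 in the Nissle group and 6.44 in the DNBS group (SE 1.89 each, limma adjusted p = 0.803, 0.488 and 0.122). Its Ct ran from 18.2 to 33.3, and the SD of its level in the DNBS group was 3.55. The part of any cell type in these differences was not tested. Cd163, a haemoglobin scavenger receptor gene of macrophages, differed by 1.06 in the DNBS group (SE 0.50, limma adjusted p = 0.331).

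**Figure D4:**
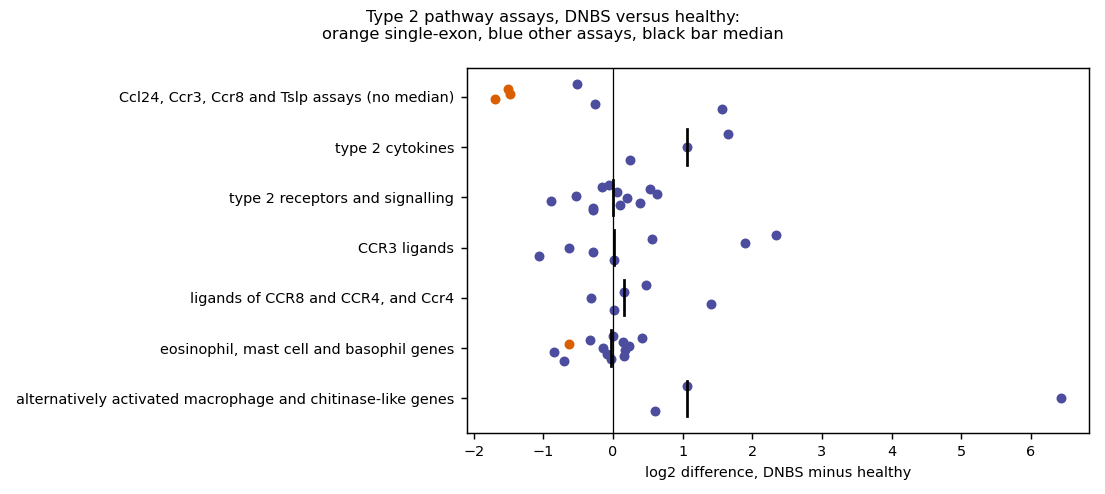
Log2 difference, DNBS minus healthy (x axis), of each tested assay in the lists named at left; orange marks single-exon assays, blue other assays, and the black bar the median of a list. The single-exon receptor assays lie at the low end between -1.70 and -1.48. Ccl24 (1.57), a Csf2 assay (1.66) and the Ccl7 assays (1.90 and 2.33) lie on the higher side, and Chi3l3 (6.44) is the highest point. The medians of 4 lists lie between -0.03 and 0.16.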

How the data were processed

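Raw cycle threshold (Ct) scores were deposited as 1 table, per the file headers, whose first line calls it a truncated example of the matrix. RNA had been prepared with the mirVana kit, per the labels' protocols, and was run on the OpenArray Mouse Inflammation Panel. Groups came from the labels' titles, descriptions and treatments. A value of 40, in 1273 cells, was treated as missing, as was 1 empty cell. The precision is limited by 5 samples per group.

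Assays having 3 or more values per group entered limma 3.58.1 (R 4.3.3): 4 group means over 20 samples, moderated with a trend, two-sided, Benjamini-Hochberg at 0.05. In data simulated on the DNBS and healthy groups with 200 of 569 assays changed, 47.6% of changes of 1 and 84% of changes of 2 (log2) were called, and 1.14% of unchanged assays. The adjustment is more lenient when many assays are changed, and in the real comparison 1 of 569 passed. Simulated assays also varied independently of each other. These shares are therefore not the power in the real comparison. Fisher's exact test (SciPy 1.17.1) compared detection, and the Ccr3 assay difference with an exact permutation test. Both Ccr8 assays are single-exon, so no such difference exists for them. Permutation p-values of correlations used 100000 resamples. A design suffix of s1 in the assay name was read as single-exon and m1 as exon-junction.

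The 5 genes and all lists were chosen with earlier results of these data known. Named were all assays of the 5 genes, the 3 assays most correlated with each, and up to 4 assays per list and comparison with an unadjusted p under 0.05. Other list genes are named for their role, after their values were seen. Titles number the samples. In the DNBS and healthy groups, deviations of the 3 same-numbered samples correlated at 0.14 to 0.49. For the 2 shared numbers of the CEC and healthy groups the correlations were 0.11 to 0.13. The labels do not say that a shared number marks a pair, and differently numbered samples were not compared. In each of the other comparisons at least 1 correlation was below 0.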

Additional observations from a re-analysis of the deposited data

Results flagged for a closer look

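For Ccr8 assay Ccr8_Mm99999115_s1, Nissle 5 stood apart within its group: its level was -2.78, and the nearest of the other Nissle samples was at -3.60. The gap was 0.743 of the group's whole range. Of 28 groups of values examined, from the 6 tested assays and the difference between the Ccr3 assays in each of 4 groups, this was the one with a sample set apart in this way. Il13ra2, with 3 values or none per group, was not examined. Chance sets apart about 1 in 20 groups.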

How the results depend on the processing

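Of 1422 values recomputed for the tested assays of the 5 genes, 1366 kept their direction and side of the threshold, 5 newly passed with array weights, and 51 changed sign, none of them past the threshold in either form. With array weights 4 of the 6 assays passed in DNBS versus healthy: Ccl24 (1.86, limma adjusted p = 0.02), single-exon Ccr3 (-1.92, 0.00732) and the Ccr8 assays (-1.57, 0.0179, and -1.91, 0.0419). In CEC versus DNBS, 1 passed. The weights ranged from 0.253 for Nissle 1 to 2.87 for CEC 8. Leaving out any 1 sample passed 0 of the 6 in each comparison. The cause of these changes was not tested.

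Passing assays over the whole panel numbered 1 in DNBS versus healthy, but 0 without normalization, 9 with only the groups compared, 101 with array weights and 2 with the replicate number as a block, and 1 to 7 with 1 sample left out (7 without DNBS 5, 6 without Nissle 1). In CEC versus healthy the 1 passing assay became 0 with the sample median, quantile scaling, no normalization, only the groups compared, no trend, the block or without Nissle 3, 4 and 5, and 2 with missing values set to 40. In Nissle versus healthy it became 0 without normalization, with only the groups compared, with the block or without those 3 samples, and 3 with values set to 40. Both ranged from 0 to 1 with 1 sample left out. For the mean of the 3 treated groups it became 0 without normalization or with the block, 2 with values set to 40 or without those 3 samples, and 4 with array weights. In CEC versus DNBS, 0 became 47 with array weights. The replicate block left 0 of the 6 passing in each comparison.

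Sign changes outside the leave-one-out fits were as follows. With the replicate block, exon-junction Ccr3 became 0.16 in DNBS versus healthy and 0.14 in the treated mean, Tslp -0.42 for CEC, -0.21 for Nissle and -0.73 for the treated mean versus healthy, and Ccl24 -0.051 in Nissle versus healthy. With array weights, exon-junction Ccr3 became 0.18 in CEC versus healthy, 0.70 in CEC versus DNBS and 0.14 in CEC versus Nissle, Ccl24 -0.12 in Nissle versus healthy, and single-exon Ccr3 -0.043 in CEC versus Nissle. Relative to single-exon assays, Ccr8_Mm99999115_s1 became 0.0071 in CEC versus healthy, Ccr8_Mm00843415_s1 -0.066 in Nissle versus DNBS and single-exon Ccr3 -0.013 in CEC versus Nissle. Quantile scaling gave -0.035 for Ccl24 and -0.026 for exon-junction Ccr3 in Nissle versus healthy, the sample median -0.0004 for that Ccr3 assay there and 0.014 in CEC versus DNBS. Without normalization, exon-junction Ccr3 was 0.028 in the treated mean and single-exon Ccr3 -0.15 in CEC versus Nissle. Without Nissle 3, 4 and 5, Ccl24 was -0.24 in CEC versus Nissle.

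With 1 sample left out, exon-junction Ccr3 ranged from -0.56 to 0.45 in DNBS versus healthy, -0.71 to 0.25 in CEC versus healthy, -0.60 to 0.43 in Nissle versus healthy, -0.84 to 0.51 in CEC versus DNBS, -0.43 to 0.69 in Nissle versus DNBS, -0.83 to 0.23 in CEC versus Nissle and -0.44 to 0.12 in the treated mean. Single-exon Ccr3 ranged from -0.42 to 0.025 and Ccr8_Mm99999115_s1 from -0.43 to 0.20 in CEC versus healthy, and Ccr8_Mm00843415_s1 from -0.023 to 0.55 in Nissle versus DNBS. Tslp ranged from -0.13 to 0.82 in CEC versus healthy and -0.33 to 0.62 in the treated mean, and Ccl24 from -0.34 to 0.49 in Nissle versus healthy and -0.0053 to 0.83 in CEC versus Nissle. The difference between the Ccr3 assays ranged from -0.61 to 0.73 in CEC versus healthy and -0.073 to 1.26 in CEC versus Nissle. The range of Tslp was -1.11 to -0.16 in DNBS versus healthy, where the replicate block gave -1.58, and 0.26 to 1.21 in Nissle versus healthy. The latest Il13ra2 value was at a Ct of 29.9, so a limit of 35 cycles could not alter its counts.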
